A study of Homo sapiens with 16 samples.

Results

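The bone morphogenetic proteins (BMPs) and the activins are secreted dimers of the transforming growth factor beta family, and the 10 genes described here encode 6 ligand subunits of these groups together with 4 proteins that hold them in check. The ligand genes are BMP2, BMP3, BMP4, BMP7, INHBA and INHBB, and the antagonist genes are FST, FSTL3, GREM1 and BAMBI. These 10 of the 59428 genes in the count table were chosen by name and selected on measured values: BMP7, BMP3 and FST lay lower with olaparib in OVCAR3, and INHBA lay higher with olaparib in UWB1.289. The olaparib comparisons of the 10 genes are therefore given as a description without a test. The comparisons between the cell lines reuse the same libraries, so BMP7, BMP3, FST and INHBA, whose values made the choice, are described there too. A test is given for the other genes unless they are marked as given without one.

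BMPs bind a pair of receptor kinases on the cell surface, and the receptors then phosphorylate SMAD1, SMAD5 and SMAD9. Activins use a partly different set of receptors and pass the signal to SMAD2 and SMAD3. The phosphorylated SMADs join SMAD4, enter the nucleus and switch on genes such as ID1, ID2 and ID3 in the case of BMPs. In the ovary, activins and follistatin are best known from the follicle, where they take part in the control of follicle growth and of hormone production.

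OVCAR3 and UWB1.289 are cell lines from human ovarian carcinoma. OVCAR3 has intact BRCA1, a gene needed for repair of DNA double strand breaks by homologous recombination, and UWB1.289 carries a BRCA1 mutation. Each line received olaparib, an inhibitor of PARP enzymes, or the solvent DMSO for 96 h, with 4 replicates in each of the 4 groups (16 libraries). Olaparib was given at 7.5 µM to OVCAR3 and at 3.5 µM to UWB1.289. OVCAR3 was kept in RPMI with 20% serum and insulin while UWB1.289 was kept in a mixture of MEGM and RPMI with 3% serum. Cell line, BRCA1 status, dose and medium therefore cannot be told apart in any comparison between the lines. The lines stand for 1 tumor each, and nothing in the labels says whether the replicates came from separate cultures, so that p-values cover the spread between these libraries, which may be technical.

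RNA was sequenced from its 3' end (QuantSeq), and a gene's value is the number of reads counted on it. Totals per library lay between 5599571 and 7730228 counts. Values are given below as normalized counts, scaled to the mean effective library size of the 16 libraries with the TMM method, and n = 4 for each group. A gene counted as called when its adjusted p was below 0.1, its change exceeded 2-fold and its normalized counts averaged above 10 over the libraries compared. Of 8 genes that mark ovarian carcinoma epithelium, all 8 lay above the floor of 3 counts per library in OVCAR3 and 7 did so in UWB1.289, where WT1 had 0 counts with DMSO and 4 counts over the 4 libraries with olaparib. The fibroblast markers COL3A1 and LUM were at 0 in every library. The summed fibroblast list of 8 genes, nearly all of it COL1A1 and COL1A2, ranged from 145 to 200 normalized counts in OVCAR3 with DMSO and from 207 to 256 with olaparib, and from 284 to 395 in UWB1.289 with DMSO and from 169 to 209 with olaparib. The part of these genes in the results was not tested.

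BMP7 and BMP3 were transcribed in OVCAR3 and at or near 0 in UWB1.289, and both lay lower in OVCAR3 with olaparib. BMP7 encodes a ligand that signals through SMAD1, SMAD5 and SMAD9, and it lies on the minus strand of chromosome 20 (chr20:57168753-57266641, hg38). BMP7 measured 4436, 4185, 4471 and 4494 normalized counts in OVCAR3 with DMSO, and 1619, 1803, 1716 and 1921 with olaparib. All olaparib libraries lay below all DMSO libraries, and the log2 fold change was -1.31 ± 0.07 (SE), or 2.48-fold lower. In UWB1.289 a single DMSO library held 2 reads of BMP7 and the other 7 libraries held 0.

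BMP3 (chr4:81030708-81057627, plus strand) encodes a BMP that differs from the others in that it acts mainly against BMP signaling. It had 65.4, 29.5, 39.4 and 72.5 normalized counts in OVCAR3 with DMSO, against 5.04, 12.1, 3.69 and 7.11 with olaparib. The groups did not overlap, and BMP3 lay 7.36-fold lower with olaparib (log2 fold change -2.88 ± 0.37). In UWB1.289, BMP3 had 0 counts with DMSO and 2 counts over the 4 olaparib libraries.

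BMP4 and BMP2 showed the opposite line pattern, with higher levels in UWB1.289, and they did not meet the limits for a call with olaparib. Both encode BMPs of one closely related pair that act through SMAD1, SMAD5 and SMAD9. BMP4 (chr14:53949736-53958761, minus strand) measured 92.4 ± 19.6 (SD) normalized counts with DMSO and 78.5 ± 11.5 with olaparib in OVCAR3, and 558 ± 67.5 with DMSO and 559 ± 97.2 with olaparib in UWB1.289. The BMP4 groups with and without olaparib overlapped in both lines, with log2 fold changes of -0.22 ± 0.17 in OVCAR3 and 0.00 ± 0.11 in UWB1.289. BMP2 (chr20:6767686-6780246, plus strand) had 0 counts in all 8 OVCAR3 libraries. In UWB1.289 it measured 20.5, 17.3, 25.9 and 26.5 normalized counts with DMSO and 41.7, 21.9, 46.8 and 33.8 with olaparib, groups that overlap (log2 fold change 0.67 ± 0.27).

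The activin subunits went separate ways with olaparib in both lines: INHBA lay higher and INHBB lower. INHBA encodes the beta A subunit, which makes activin A as a dimer and inhibin A together with the alpha subunit. In UWB1.289 it measured 60.6, 70.3, 59.0 and 71.0 normalized counts with DMSO and 320.0, 355, 408 and 382 with olaparib, 5.61-fold higher (log2 fold change 2.49 ± 0.13). In OVCAR3 the INHBA level was low, with raw counts of 1, 1, 1 and 6 with DMSO and 14, 34, 21 and 17 with olaparib. Every olaparib library lay above every DMSO library in each line.

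The INHBA difference in OVCAR3, a log2 fold change of 3.12 ± 0.53, rested on few reads. It was 4.16 without DMSO replicate 4, the library with 6 counts. Without olaparib replicate 2 it was 2.78 and the average normalized count dropped to 8.38, below the limit for a call. An antisense gene, INHBA-AS1, overlaps INHBA on the opposite strand and had 9 counts in all libraries against 1746 for INHBA.

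INHBB encodes the beta B subunit of activin B and inhibin B. Its levels were 664, 596, 676 and 796 normalized counts in OVCAR3 with DMSO and 402, 313, 407 and 306 with olaparib, so that INHBB lay 1.91-fold lower (log2 fold change -0.93 ± 0.11). In UWB1.289 it measured 1707, 1838, 1345 and 1389 normalized counts with DMSO and 954, 1143, 997 and 1160.1 with olaparib (log2 fold change -0.56 ± 0.10). The groups with and without olaparib did not overlap in either line, and neither difference reached 2-fold.

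Follistatin, the product of FST, binds activins almost irreversibly and keeps them from their receptors, and it binds several BMPs less tightly. FST measured 1024, 785, 943 and 1095 normalized counts in OVCAR3 with DMSO and 293, 269, 269 and 298 with olaparib. It thus lay 3.40-fold lower with olaparib, with a log2 fold change of -1.77 ± 0.10 and no overlap. In UWB1.289, FST measured 146, 195, 138 and 155 normalized counts with DMSO and 131, 164, 179 and 149 with olaparib. These groups overlapped (log2 fold change -0.02 ± 0.14). The signed difference of the log2 fold changes, UWB1.289 minus OVCAR3, was 1.75 ± 0.17, as FST lay lower with olaparib in OVCAR3 only.

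The start sites of the activin subunits and of follistatin are shown because these genes lay apart in their olaparib differences. RefSeq (GRCh38.p14) promoter windows were found for 7 of the 10 genes, and the windows for BMP2, BMP3 and BMP7 are not used here. The windows hold the 250 bases before the start annotated by RefSeq, cut for FST where an exon of the gene begins (247 bases). INHBA lies at chr7:41703091-41703340 (minus strand), INHBB at chr2:120345886-120346135 (plus strand) and FST at chr5:53480379-53480625 (plus strand). Capitals mark TATAAA in INHBA, GGCGCC in INHBB and TGANTCA in FST.
INHBA: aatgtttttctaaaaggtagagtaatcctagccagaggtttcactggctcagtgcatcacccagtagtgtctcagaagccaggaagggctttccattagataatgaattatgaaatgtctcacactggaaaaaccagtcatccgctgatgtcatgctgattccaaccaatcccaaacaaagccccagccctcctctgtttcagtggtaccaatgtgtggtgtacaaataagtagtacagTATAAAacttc
INHBB: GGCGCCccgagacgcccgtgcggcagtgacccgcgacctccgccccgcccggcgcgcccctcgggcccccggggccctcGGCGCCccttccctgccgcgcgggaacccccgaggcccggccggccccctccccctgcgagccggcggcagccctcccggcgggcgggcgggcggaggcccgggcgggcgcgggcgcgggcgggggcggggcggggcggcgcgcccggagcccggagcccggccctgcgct
FST: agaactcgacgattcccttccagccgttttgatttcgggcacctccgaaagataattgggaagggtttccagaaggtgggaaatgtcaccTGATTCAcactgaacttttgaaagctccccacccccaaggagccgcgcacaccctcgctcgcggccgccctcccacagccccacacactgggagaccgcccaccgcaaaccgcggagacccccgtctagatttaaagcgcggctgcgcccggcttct

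These windows were searched on both strands for TATAAA (the string of the TATA box), TGANTCA (a pattern that takes in the AP-1 sites TGACTCA and TGAGTCA), TGACGTCA (the cAMP response element) and GGCGCC. None of the matches overlapped another here. INHBA held TATAAA 11 to 6 bases before the start, a motif present in 10.7% of 35116 promoters, and its window had a GC content of 42.8%. The INHBB window had a GC content of 89.6% and held GGCGCC at both -250 to -245 and -171 to -166, a motif found in 16.4% of promoters. FST held TGANTCA at -160 to -154, a motif found in 6.57% of promoters, in a window with a GC content of 59.9%. The FST match reads TGATTCA, which is neither of the AP-1 sites named. TGACGTCA was found in 1.65% of promoters and in none of the 7 windows. Of the windows not printed, BMP4, FSTL3, BAMBI and GREM1 also held GGCGCC, and FSTL3 also held TATAAA. A match is a string of letters and was not tested for binding.

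FSTL3, GREM1 and BAMBI were measured at lower counts, and each had a higher mean in UWB1.289 than in OVCAR3 under the same treatment. FSTL3 encodes a follistatin relative that binds activins. In OVCAR3 its levels were 27.9, 25.0, 24.4 and 27.9 normalized counts with DMSO and 41.3, 50.6, 38.8 and 50.6 with olaparib (log2 fold change 0.79 ± 0.22). In UWB1.289, FSTL3 measured 108, 81.1, 108 and 117 with DMSO and 124, 119.9, 128 and 127 with olaparib (0.27 ± 0.14). The olaparib libraries lay above the DMSO libraries in both lines, by less than 2-fold.

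GREM1 encodes gremlin, which binds BMP2, BMP4 and BMP7 outside the cell. It measured 11.7 ± 3.4 normalized counts with DMSO and 13.7 ± 3.3 with olaparib in OVCAR3, where the groups overlapped, and 48.8 ± 6.0 with DMSO and 70.4 ± 8.9 with olaparib in UWB1.289, where they did not (log2 fold change 0.53 ± 0.18). BAMBI encodes a receptor-like protein without a kinase domain that blocks signaling by both ligand groups. In UWB1.289 it measured 6.84, 6.49, 6.21 and 11.98 normalized counts with DMSO and 20.3, 15.0, 27.0 and 17.9 with olaparib, with no overlap (log2 fold change 1.32 ± 0.36). In OVCAR3, BAMBI did not pass the filter on low counts, with raw counts of 2, 8, 5 and 5 with DMSO and 18, 16, 13 and 8 with olaparib.

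**Figure D1:**
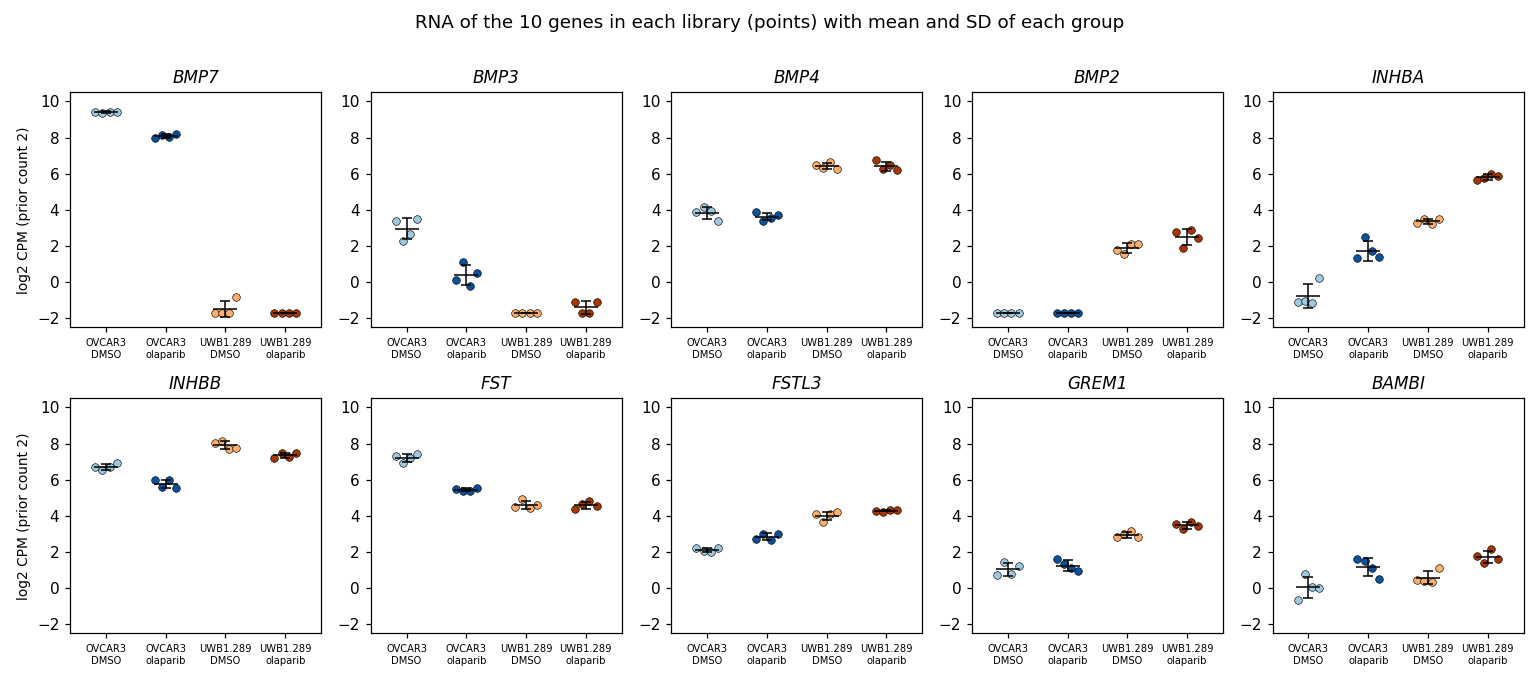
Level of each of the 10 genes in each of the 16 libraries, as log2 CPM with a prior count of 2 (vertical axis) in the 4 groups (horizontal axis), where points are libraries, the horizontal line is the mean and the bars are the SD. BMP7, BMP3 and FST lay highest in OVCAR3 with DMSO, INHBA lay highest in UWB1.289 with olaparib, and points near -1.7 are libraries with 0 counts.

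With olaparib, 8 of the 10 genes could be fitted in OVCAR3, of which 1 met the limits for a call in the higher direction (INHBA) and 3 in the lower direction (BMP3, FST and BMP7). Among the 13031 genes fitted in that comparison 2.90% were called higher and 2.33% lower. For 6 of the 8 genes no olaparib library fell within the range of the DMSO libraries, against 25.7% of all genes fitted. In UWB1.289 8 of the 10 genes could be fitted, 2 were called higher (INHBA and BAMBI) and 0 lower, against 1.93% called higher and 0.282% called lower of 12748 genes. There 5 of the 8 genes had groups without overlap, against 14.7% of all genes. The choice of the 10 genes used these contrasts, and nothing is read from the counts.

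**Figure D2:**
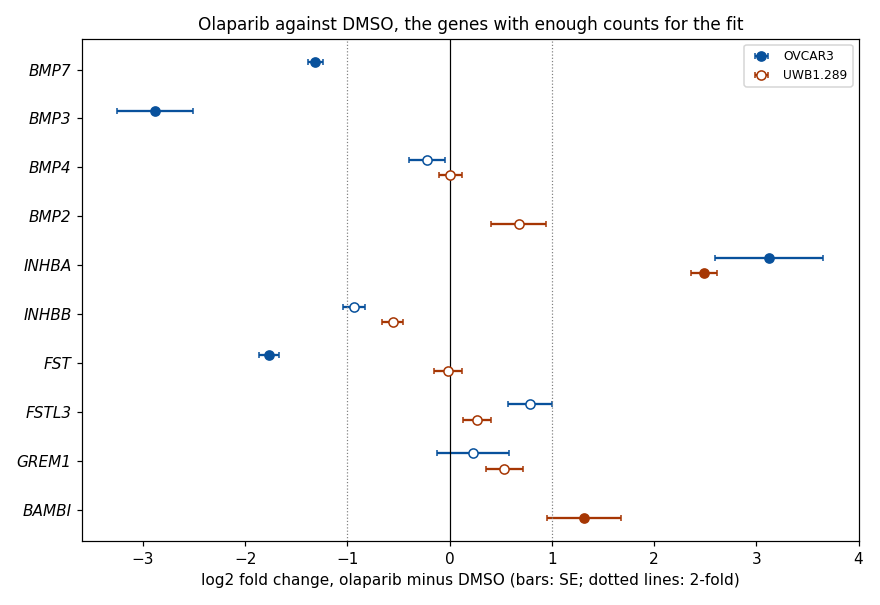
Log2 fold change of olaparib against DMSO (horizontal axis, bars are SE) for the genes that could be fitted in OVCAR3 (blue) and in UWB1.289 (brown), with filled points for genes that met the limits for a call and dotted lines at 2-fold. FST lay at -1.77 in OVCAR3 and at -0.02 in UWB1.289, whereas INHBA lay above 2-fold and INHBB below 0 in both lines.

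The question of which ligands and antagonists each line transcribes was addressed by comparing UWB1.289 with OVCAR3, first on the DMSO libraries and then on the olaparib libraries. With DMSO, BMP4, BMP2, INHBA, INHBB, FSTL3 and GREM1 lay higher in UWB1.289, and BMP7, BMP3 and FST lay lower. Among the antagonists, FST lay 6.11-fold lower in UWB1.289 (log2 fold change -2.61 ± 0.11) and FSTL3 was 3.93-fold higher (edgeR adjusted p = 1.52e-10). GREM1 lay 4.14-fold higher and is given without a test, since it passed the filter on low counts only through UWB1.289. Among the ligands, BMP4 was 6.06-fold higher (2.60 ± 0.12, edgeR adjusted p = 8.76e-18) and INHBB 2.29-fold higher (1.19 ± 0.10, adjusted p = 1.71e-12). INHBA lay higher by 4.77 ± 0.37 on the log2 scale, a value that rests on 1, 1, 1 and 6 counts in OVCAR3 and became 5.80 without OVCAR3 DMSO replicate 4.

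The remaining ligands were at the floor of 3 counts per library in one line, so their ratios are bounds or carry wide intervals, and they are given without a test since they passed the filter on low counts only through the line in which they were high. BMP3 had 207 counts over the OVCAR3 libraries with DMSO and 0 in UWB1.289, at least 17.8-fold lower in UWB1.289 when each UWB1.289 library is set to 3 counts. BMP7 reads numbered 17427 in OVCAR3 against 2 in UWB1.289, a ratio of 8996 with a 95% counting interval from 2489.9 to 74286. For BMP2 the 93 counts of UWB1.289 against 0 in OVCAR3 put it at least 7.51-fold higher. Without UWB1.289 DMSO replicate 3 or replicate 4 the average normalized count of BMP2 was 9.32 or 8.97, below the limit for a call. The intervals and bounds cover counting error only.

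With DMSO, 9 of the 10 genes could be fitted and 9 met the limits for a call, 6 higher and 3 lower, whereas 18.7% of the 13366 tested genes were called higher and 19.7% lower. The line groups did not overlap for any of the 9, as for 69.4% of all tested genes. BMP2, BMP3, BMP7, INHBA and GREM1 passed the filter only through 1 line. The DMSO libraries are also part of the contrasts that chose the genes, so the count is a description. BAMBI did not pass the filter and measured 5.14 normalized counts in OVCAR3 and 7.88 in UWB1.289.

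With olaparib in both lines the order of the lines held for each of the 8 genes fitted in both comparisons, with a smaller gap for FST. FST lay 1.83-fold lower in UWB1.289 (log2 fold change -0.87 ± 0.12), which is under the 2-fold limit, and the libraries of the lines did not overlap. INHBA lay 17.6-fold higher in UWB1.289 (4.14 ± 0.20). Among the tested genes BMP4 was 7.05-fold higher (edgeR adjusted p = 4.09e-12), INHBB 2.96-fold (adjusted p = 5.37e-10), FSTL3 2.73-fold (adjusted p = 1.83e-07) and GREM1 5.08-fold (adjusted p = 6.25e-08). For BMP2 the bound was at least 12.7-fold higher (137 counts against 0), and BMP7 lay at least 556-fold lower (7412 counts against 0). Both passed the filter only through the line in which they were high and are given without a test.

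BAMBI did not differ beyond its error between the lines with olaparib, with a log2 fold change of 0.59 ± 0.34 (edgeR adjusted p = 0.127) and overlapping libraries. It passed the filter on low counts only through UWB1.289. BMP3 was not tested there, with 29 counts in OVCAR3 and 2 in UWB1.289, a ratio of 13.0 with a 95% counting interval from 3.30 to 113. Of 9 genes that could be fitted 7 met the limits for a call, 6 higher and 1 lower, whereas 18.6% of 13398 genes were called higher and 18.3% lower. The line groups did not overlap for 8 of the 9, as for 65.4% of all tested genes.

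By level, INHBA ran from UWB1.289 with olaparib through UWB1.289 with DMSO and OVCAR3 with olaparib to OVCAR3 with DMSO, and no neighbours in this order overlapped. INHBB ran from UWB1.289 with DMSO through UWB1.289 with olaparib and OVCAR3 with DMSO to OVCAR3 with olaparib, again without overlap between neighbours. FST was highest in OVCAR3 with DMSO, followed by OVCAR3 with olaparib, and its UWB1.289 groups overlapped at the bottom.

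The genes whose log2 CPM followed these patterns most closely over the 16 libraries were sought among 12628 genes. For BMP7 they were EMX2OS, UGT2B7 and TMPRSS15, with Pearson's r of 0.999, 0.999 and 0.998. For BMP3 they were THSD4, NREP and ANK3 (0.980, 0.979 and 0.978), and for FST they were TCF4, THSD4 and WSCD2 (0.991, 0.985 and 0.977). For INHBA they were SEMA3C, BIRC3 and ETS1 (0.977, 0.977 and 0.974). These values describe 16 libraries that fall into 4 groups, so the difference between the lines enters each of them.

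The tested target genes of BMP signaling stood far apart between the lines and in 1 direction. Of 11 listed target genes 8 were tested. All 8 were called lower in UWB1.289 than in OVCAR3, with DMSO and with olaparib. Over all tested genes 19.7% and 18.3% were called lower. ATOH8, DLX5 and TMEM100 passed the filter on low counts only through OVCAR3 in both comparisons, and HEY1 did so with DMSO. With DMSO the untested MSX2 (0.27 normalized counts in OVCAR3 and 1.48 in UWB1.289) and RUNX2 (4.39 and 9.54) had higher means in UWB1.289. The untested MSX1 (2.34 and 2.25) did not. The ID genes encode inhibitors of basic helix-loop-helix transcription factors. With DMSO, ID1 measured 2381 normalized counts in OVCAR3 and 321 in UWB1.289 (log2 fold change -2.90 ± 0.09, edgeR adjusted p = 6.43e-23), ID2 measured 1519 and 123 (-3.63 ± 0.09, adjusted p = 1.56e-24), and ID3 measured 567 and 21.6 (-4.71 ± 0.15, adjusted p = 6.64e-22). TMEM100, a membrane protein gene induced by BMPs in endothelium, measured 1416 and 15.2 (-6.53 ± 0.13). ATOH8, which encodes a transcription factor, measured 26.3 and 1.94. TMEM100 and ATOH8 are given without a test, since they passed the filter only through OVCAR3.

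The median log2 fold change of the 8 target genes was -3.26 with DMSO and -3.83 with olaparib, beside -0.02 and 0.01 over all tested genes. HEY1 with DMSO and DLX5 with olaparib were called although their libraries overlapped between the lines. The BMP4 and BMP2 genes were thus higher, and BMP7 and the 8 target genes lower, in UWB1.289. The part of line, BRCA1 status and medium in this pattern cannot be told apart.

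**Figure D3:**
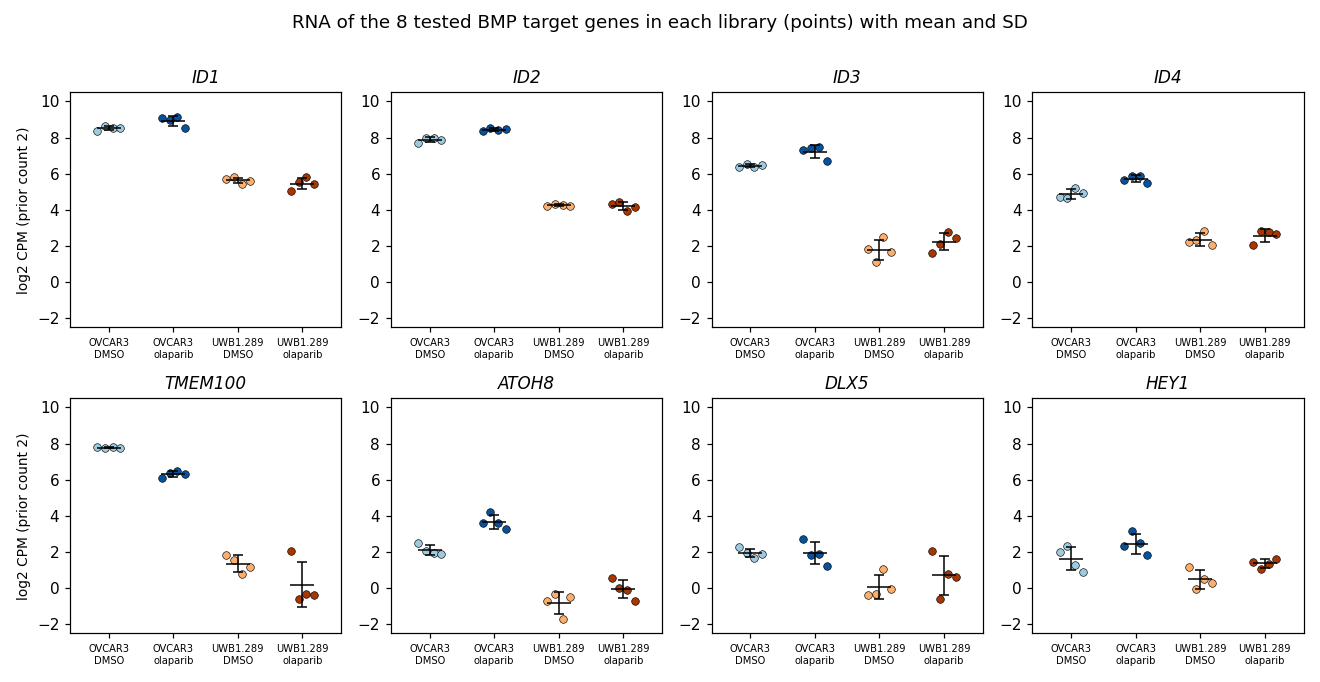
Level of the 8 tested target genes of BMP signaling in each of the 16 libraries, as log2 CPM with a prior count of 2 (vertical axis) in the 4 groups (horizontal axis), where points are libraries, the horizontal line is the mean and the bars are the SD. The UWB1.289 libraries lay below the OVCAR3 libraries for ID1, ID2, ID3, ID4, TMEM100 and ATOH8, and 1 UWB1.289 olaparib library stood above the other 3 for TMEM100.

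Of 13 tested receptors and coreceptors, 4 were higher in UWB1.289 with DMSO (RGMA, ENG, BMPR2 and ACVR1) and 3 were lower (BMPR1B, ACVR2B and NEO1), beside 18.7% and 19.7% of all tested genes. BMPR1B, a type I receptor of BMPs, measured 97.6 normalized counts in OVCAR3 and 1.65 in UWB1.289. BMPR1B had at most 3 counts per UWB1.289 library and RGMA at most 4 per OVCAR3 library. Like ENG, both passed the filter on low counts only through the line in which they were high, and BMPR1B is given without a test. BMPR2, a type II receptor of BMPs, measured 212 and 458 (log2 fold change 1.10 ± 0.10, edgeR adjusted p = 3.30e-11). Over the list the median log2 fold change was -0.65.

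Of 13 SMADs and SMAD regulators, all tested, PMEPA1 was higher in UWB1.289 and SMAD1 and SMAD6 were lower. PMEPA1, which is induced by and dampens signaling through SMAD2 and SMAD3, measured 86.9 normalized counts in OVCAR3 and 3109 in UWB1.289 (log2 fold change 5.16 ± 0.10, edgeR adjusted p = 2.27e-27). SMAD6, an inhibitory SMAD of the BMP branch, measured 193 and 48.9 (-1.98 ± 0.15, adjusted p = 2.87e-13), and SMAD1, a mediator of that branch, measured 302 and 119.7 (-1.33 ± 0.11, adjusted p = 6.70e-12). SMAD7, the inhibitory SMAD of both branches, was not called (-0.82, under 2-fold) and passed the filter on low counts only through OVCAR3. The SMAD list had a median log2 fold change of -0.29.

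Among the other ligands, 4 of 6 tested were higher in UWB1.289, namely GDF15, BMP6, INHBE and BMP8B, and GDF11 and AMH were lower. GDF15, a stress-induced member of the family, measured 68.4 and 762 normalized counts (log2 fold change 3.48 ± 0.14, edgeR adjusted p = 7.15e-20). Of 7 tested other antagonists NBL1 was higher and CHRDL1 and SOSTDC1 were lower, and SOSTDC1 had 0 counts in UWB1.289 with DMSO. Of 5 tested proteases that process these ligands, FURIN and TLL2 were higher and PCSK5 and BMP1 lower. FURIN measured 98.4 and 499 normalized counts (2.34 ± 0.11, edgeR adjusted p = 6.39e-18). BMP6, BMP8B, INHBE, AMH, SOSTDC1 and TLL2 passed the filter on low counts only through the line in which they were high. The median log2 fold changes of these lists were 2.13, -0.09 and 0.85. Over all 88 listed genes that are not among the 10, 52 were tested, 12 were called higher and 19 lower, beside 18.7% and 19.7% of all tested genes. As the lists were chosen with earlier results of these data known, these counts are a description. BMP1 was no longer called without UWB1.289 DMSO replicate 3, where its log2 fold change was -0.99.

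With olaparib in both lines 53 of these 88 genes were tested, 11 were called higher in UWB1.289 and 21 lower, beside 18.6% and 18.3% of all tested genes. These counts are a description for the same reason. ID1 was 11.2-fold lower in UWB1.289 (edgeR adjusted p = 4.17e-13), ID2 19.1-fold (adjusted p = 6.76e-16) and ID3 33.0-fold (adjusted p = 2.75e-13). SMAD6 (log2 fold change -2.58 ± 0.17), SMAD1 (-1.22 ± 0.13) and SKI (-1.01 ± 0.10) were lower. SMAD7 (59.7 and 14.2 normalized counts) and SMAD9 (66.8 and 6.55) also lay lower. These last genes, SMAD7 and SMAD9, passed the filter only through OVCAR3 and are given without a test. ACVR2B, lower in UWB1.289, was no longer called without UWB1.289 olaparib replicate 2 (log2 fold change -0.995). The median log2 fold changes were 2.04 for other ligands, -0.28 for receptors, -0.51 for other antagonists, -0.49 for SMADs and their regulators and 0.73 for proteases.

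With olaparib in OVCAR3, 8 of the 48 listed genes tested rose and 4 fell, beside 2.90% and 2.33% of all tested genes. The lists were chosen with earlier results of these data known, so the counts are a description. In the list of SMADs and their regulators, 4 of 13 rose. SMAD9 rose from 21.8 to 66.8 normalized counts (log2 fold change 1.62 ± 0.22, edgeR adjusted p = 1.89e-05), SMAD7 from 21.2 to 59.7 (1.49 ± 0.25, adjusted p = 1.50e-04), PMEPA1 from 86.9 to 251 (1.54 ± 0.13, adjusted p = 3.48e-08) and SMAD3 from 323 to 655 (1.02 ± 0.10, adjusted p = 2.12e-07). The other 9 of the 13 genes in this list, SMAD6 among them at 0.72 ± 0.11, were not called. Over the 13 genes the median was 0.43, beside -0.01 over all genes. The SMAD3 call was lost when DMSO replicate 1 or olaparib replicate 2 was left out, with log2 fold changes of 0.95 and 0.99.

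Of 7 tested other antagonists, NOG and SOSTDC1 fell. NOG encodes noggin, which binds BMPs and keeps them from their receptors, and it measured 309.7, 339, 373 and 414 normalized counts with DMSO and 138, 169, 161 and 126 with olaparib. NOG thus fell by 1.27 ± 0.12 on the log2 scale (edgeR adjusted p = 1.87e-07) without overlap. SOSTDC1, which also binds BMPs, went from 45.5 to 18.04 normalized counts (-1.33 ± 0.24, adjusted p = 3.30e-04). FST, described above, lay lower in the same libraries. Of 11 tested receptors and coreceptors ENG lay higher (9.22 to 23.2) and BMPR1B fell (97.6 to 32.3, edgeR adjusted p = 3.21e-05). ENG is given without a test, since it passed the filter on low counts only through the olaparib libraries. The median log2 fold changes were -0.39 for other antagonists and 0.00 for receptors.

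Of 8 tested target genes, ATOH8 rose (26.3 to 82.7 normalized counts, 1.66 ± 0.23, edgeR adjusted p = 2.15e-05) and TMEM100 fell (1416 to 521, -1.44 ± 0.08, adjusted p = 2.45e-10). ID1, ID2 and ID3 had log2 fold changes of 0.43, 0.57 and 0.81, under the 2-fold limit, with adjusted p of 0.00401, 1.67e-05 and 7.12e-05. The median of the list was 0.69. Of 4 tested other ligands GDF15 rose (68.4 to 196, adjusted p = 1.60e-06), and of 5 tested proteases TLL2 rose (6.27 to 18.5, adjusted p = 0.0150), although its groups overlapped. The medians of these lists were 0.29 and 0.29. The epithelial marker list moved in the same libraries, with a summed level of 26409 to 28053 normalized counts with DMSO and 16798 to 18405 with olaparib, mostly through KRT8 and KRT18, and its part in these results was not tested.

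In UWB1.289, 49 of the listed genes were tested with edgeR and 0 were called with olaparib, and DESeq2 also called 0, beside 1.93% of all tested genes called higher and 0.282% lower by edgeR. At an unadjusted p below 0.05 the edgeR count was 13, and 1 gene was called when UWB1.289 DMSO replicate 1 was left out (HEY1) or olaparib replicate 4 was left out (ACVR1C). GDF15 (1.72-fold), SMAD3 (1.58-fold) and PMEPA1 (1.40-fold) lay higher with adjusted p of 6.38e-06, 9.45e-06 and 9.24e-05, under the 2-fold limit. ID1, ID2 and ID3 had log2 fold changes of -0.16 ± 0.13, -0.04 ± 0.14 and 0.48 ± 0.32, SMAD6 of 0.12 ± 0.22 and SMAD7 of 0.23 ± 0.37, with overlapping groups. The medians of the lists lay between -0.15 (other antagonists) and 0.19 (proteases), with 0.09 for other ligands, -0.02 for receptors, 0.12 for SMADs and 0.10 for target genes, beside 0.00 over all genes. The summed leukocyte list of 5 markers was 54.8 to 78.1 normalized counts with DMSO and 108 to 145 with olaparib, with CD3E at 0, and the summed endothelial list of 4 markers was 38.1 to 74.5 and 52.4 to 63.4. The part of the leukocyte markers in the INHBA difference was not tested.

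**Figure D4:**
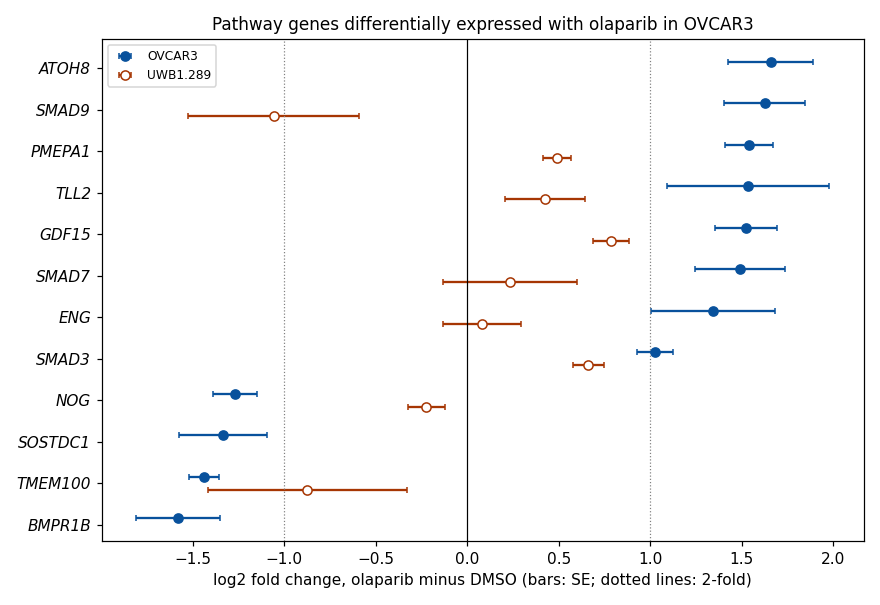
Log2 fold change of olaparib against DMSO (horizontal axis, bars are SE) for the 12 listed genes called in OVCAR3 (blue), beside their values in UWB1.289 (brown) where they could be fitted. Filled points met the limits for a call, dotted lines mark 2-fold, and 0 of the UWB1.289 points are filled.

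Whether olaparib acted differently on the listed genes in the 2 lines was tested as an interaction over the 16 libraries. Of 55 tested genes 6 were called, and 3.66% of 14243 genes were called in either direction. Since the lists were chosen with earlier results of these data known, this count is a description. The effect on the log2 scale was lower in UWB1.289 than in OVCAR3 for SMAD9 (-2.68 ± 0.50, edgeR adjusted p = 6.04e-04), ENG (-1.26 ± 0.39, adjusted p = 0.0460), SMAD7 (-1.26 ± 0.44, adjusted p = 0.0800) and PMEPA1 (-1.05 ± 0.13, adjusted p = 2.30e-06). The signed difference was positive for NOG (1.05 ± 0.16, adjusted p = 4.29e-05) and CHRDL1 (1.08 ± 0.25, adjusted p = 0.00593). NOG had log2 fold changes of -1.27 in OVCAR3 and -0.22 in UWB1.289, and CHRDL1 of -0.86 and 0.22.

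ID1, ID2, ID3 and SMAD6 were not called in this test, with ID1 at -0.58 and ID2 at -0.61 under the 2-fold limit. The medians were -0.50 for target genes, -0.36 for SMADs and their regulators, -0.32 for other ligands, -0.10 for receptors, 0.03 for other antagonists and -0.56 for proteases, beside 0.01 over all genes. Among the 10 chosen genes, the difference was 0.38 ± 0.16 for INHBB, -0.62 ± 0.50 for INHBA, -0.52 ± 0.24 for FSTL3, 0.23 ± 0.20 for BMP4, 0.31 ± 0.36 for GREM1 and -0.05 ± 0.52 for BAMBI. The INHBA value was -1.68 without OVCAR3 DMSO replicate 4.

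The calls of this test that lie near a limit depended on single libraries. SMAD7 was lost in 9 of the 16 fits that left out 1 library. ENG was lost without UWB1.289 DMSO replicate 1 (log2 difference -1.10) or OVCAR3 DMSO replicate 4 (-1.09), PMEPA1 without OVCAR3 DMSO replicate 4 (-0.97), NOG without UWB1.289 olaparib replicate 4 (0.96), OVCAR3 DMSO replicate 4 (0.96) or OVCAR3 olaparib replicate 4 (0.97), and CHRDL1 without UWB1.289 DMSO replicate 3 (0.97) or without UWB1.289 olaparib replicate 1 (0.96) or 2 (0.995).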

How the data were processed

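RNA of 16 libraries of OVCAR3 and UWB1.289 was measured with QuantSeq 3' mRNA sequencing. The authors used BBDuk for trimming, STAR 2.7.9a (2-pass) for alignment to hg38 and featureCounts 2.0.0 with GENCODE 38 for counting, and the deposited values are raw counts per gene. The setting for strand and for reads with several matches is not given in the sources used here, so a gene and its antisense partner cannot be told apart. BMP4 and GREM1 each overlap an antisense gene that could not be matched in the table, and BMP7-AS1 had 0 counts.

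Groups were taken from the sample labels. Counts were normalized with TMM and tested with edgeR 4.0.16 (quasi-likelihood F test after filterByExpr, adjusted by Benjamini-Hochberg over all tested genes) in R 4.3.3. The comparisons were olaparib against DMSO in each line, UWB1.289 against OVCAR3 with DMSO and with olaparib, and the interaction over all libraries. DESeq2 was the tool of the authors, with equal limits on adjusted p, fold change and average count. Tests were checked on simulated data with 200 genes changed 3-fold. Of these edgeR called 197 in OVCAR3, 200 in UWB1.289, 200 and 198 between the lines (DMSO and olaparib) and 188 for the interaction. Unchanged genes that were called numbered 6, 4, 4, 3 and 3 in the same order. The changed genes were drawn among higher counts only, so the check does not cover genes near the limit of 10 counts. Total counts were 5599571 to 7730228 per library, so a gene of about 10 counts carries a large counting error. No 2 libraries of a group agreed within sampling noise.

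The 10 genes and the pathway lists were chosen with earlier results of these data known. Of the lists, ID1, ID2, ID3, SMAD6 and SMAD7 and up to 4 called genes per list and comparison with the largest change were to be named, and any other gene was named after its values were seen. Gene positions come from GENCODE 44 on hg38 and promoter windows from RefSeq. Alternatives were DESeq2 1.42.0 as tool or for its size factors, limits set otherwise (average count above 50, no fold limit, low counts not filtered), a fit to all 16 libraries, a replicate block, a smaller prior count (0.5) and dropping each library once.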

Additional observations from a re-analysis of the deposited data

Results flagged for a closer look

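In 3 of 40 groups of 4 libraries of the 10 genes, 36 of which had values that differ, the highest library lay away from the others by Dixon's criterion. Chance flags about 1 group in 20 when values are normally spread. That rate does not hold for groups with few reads, such as those of BMP7 and INHBA here. BAMBI measured 11.98 normalized counts in UWB1.289 DMSO replicate 4, against 6.21 to 6.84 in the other libraries. INHBA measured 5.58 in OVCAR3 DMSO replicate 4, against 0.939 to 1.13, which corresponds to 6 raw counts. BMP7 measured 1.71 in UWB1.289 DMSO replicate 4, which corresponds to 2 raw counts, against 0 in the others.

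The olaparib effect differed between the lines by edgeR's interaction test for 6 of the listed pathway genes, with values on the log2 scale as UWB1.289 minus OVCAR3. The signed difference was negative for SMAD9 (-2.68), ENG (-1.26), SMAD7 (-1.26) and PMEPA1 (-1.05), and positive for NOG (1.05) and CHRDL1 (1.08). The dose of olaparib and the medium also differed between the lines, and cannot be told apart from the line.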

How the results depend on the processing

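Counts of called genes moved by more than 1.5 times mainly with the limits of a call. With an average count above 50, the calls were 285 in OVCAR3 (682 with the limit of 10), 141 in UWB1.289 (282), 3245 (5127) and 3078 (4939) between the lines with DMSO and with olaparib, and 297 (521) for the interaction. Of the 10 genes, 2, 1 and 5 were then called in OVCAR3, in UWB1.289 and between the lines with DMSO, and of the pathway lists 7 in OVCAR3, 19 and 18 between the lines and 3 for the interaction. With no fold limit, the calls were 4066, 1760, 10497, 10036 and 1521, with 4 of the 10 genes in UWB1.289 and 31, 8, 47 and 15 listed genes in OVCAR3, in UWB1.289, between the lines with DMSO and for the interaction. The higher and lower calls of the interaction were 285 and 236, against 696 and 825 with no fold limit and 249 and 253 with no filter on low counts. DESeq2 called 2 of the 10 genes for the interaction, where edgeR called 1 (FST) and added BMP3 without OVCAR3 DMSO replicate 2. With 1 library left out the calls ranged from 654 to 743 in OVCAR3, 260 to 316 in UWB1.289, 5100 to 5221 and 4992 to 5064 between the lines and 451 to 530 for the interaction. Of the 10 genes 3 to 5, 2, 8 to 9, 7 and 1 to 2 were called in the same order, and of the lists 11 to 13, 0 to 1, 30 to 32, 31 to 36 and 4 to 6. In UWB1.289 the small olaparib differences of ID2 and SMAD6 changed sign in 1 such fit each, and ranged from -0.12 to 0.043 for ID2 and from -0.00057 to 0.32 for SMAD6. The cause was not tested.

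The replicate numbers were not taken as pairs, since nothing in the labels ties them and not every correlation exceeded 0.1. Correlations between libraries of the same number, over 13234 genes after removing group means, were 0.0227 to 0.0931 in OVCAR3 (3 of 4 highest with their own number) and 0.0815 to 0.122 in UWB1.289 (4 of 4), a hint from the data only. With the replicate block the calls were 688, 294, 5145, 4960 and 537, with 4, 2, 9, 7 and 1 of the 10 genes. Depth limits BMP2, BMP3, BAMBI and the OVCAR3 values of INHBA, where libraries held few reads.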
